A study of Mus musculus with 19 samples.

Results

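A set of 5 genes of the alveolar type II (ATII) cell whose products act against microbes at the airway surface were followed in sorted neoplastic cells of mouse lung tumors: Lyz1, Lyz2, Lcn2, Cxcl15 and Slpi. The members were found by their gene symbols, and all 5 were among the 53558 genes in the files and among the 13986 that passed a filter on low counts. They were chosen with their differences between the 3 viruses already known, so their levels in those comparisons are a description. The calls made there by the fit over all genes are counted once, beside the share of all genes called, and nothing is read from them. Reads were quantified in 19 libraries, of which 7 came from sgInert tumors, 7 from sgCebpa/b/d tumors and 5 from sgLkb1 tumors.

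All tumors were grown for 17 weeks in mice that carried R26LSL-tdTomato and H11LSL-Cas9, in which a lentiviral Cre delivered to the airway switches on a red reporter and Cas9 in the cells it infects. The sgInert tumors were started with a vector carrying the inert guides sgNeo1, sgNT and sgNeo2. The sgCebpa/b/d tumors were started with a vector carrying guides against Cebpa, Cebpb and Cebpd, which encode 3 C/EBP transcription factors, and the sgLkb1 tumors with a guide against Stk11, which encodes the kinase LKB1. The alleles of the mice and the Cre were shared by every group, and all groups were tumors, so no group here is normal lung. A library is a pool of cells from microdissected tumors that were negative for CD45, CD31, F4/80 and Ter119, and Cas9 need not have cut in every cell.

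ATII cells line the alveoli, make surfactant, and secrete proteins that kill or starve microbes. Lysozymes cut the peptidoglycan of bacterial walls: in the mouse Lyz2 encodes the M form, made by ATII cells and macrophages, and Lyz1 encodes the P form, best known from Paneth cells. Lcn2 encodes lipocalin 2, which binds the siderophores by which bacteria take up iron. Cxcl15 encodes lungkine, a chemokine of lung epithelium that draws neutrophils. Slpi encodes the secretory leukocyte protease inhibitor, which blocks neutrophil elastase and also acts on bacteria.

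The genes lie at 4 places in the GRCm38 (mm10) genome, by the GENCODE vM21 annotation. Lyz2 (ENSMUSG00000069516) at chr10:117277331-117282321 and Lyz1 (ENSMUSG00000069515) at chr10:117287797-117292868 sit on the minus strand, 5475 bases apart, and Lcn2 (ENSMUSG00000026822) at chr2:32384633-32388252 and Slpi (ENSMUSG00000017002) at chr2:164354070-164389095 lie on the minus strand too. Cxcl15 (ENSMUSG00000029375) lies on the plus strand at chr5:90794534-90803067. Because the lysozyme genes are copies of each other, reads can match both. Their coding sequences, 447 bases each, were 95.1% identical with 22 differing bases, and the first 150 coding bases, where 14 of those differences fall, are shown with the differing bases in capitals:
Lyz1: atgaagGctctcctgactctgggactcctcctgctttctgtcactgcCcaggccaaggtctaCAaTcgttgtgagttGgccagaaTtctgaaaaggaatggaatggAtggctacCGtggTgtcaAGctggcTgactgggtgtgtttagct
Lyz2: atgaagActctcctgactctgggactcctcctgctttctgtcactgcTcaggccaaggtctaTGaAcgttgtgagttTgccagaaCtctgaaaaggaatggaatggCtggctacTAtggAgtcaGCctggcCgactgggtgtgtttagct
Of all 75-base windows of the coding sequence, 88.2% in Lyz1 did not occur in Lyz2, and 93.8% of the windows of the whole Lyz1 transcript did not. The software that made the counts reported a posterior standard deviation of the Lyz1 count of 0.03 to 0.68 reads over the 19 libraries. That value covers only the division of reads under the software's own model. Whether some Lyz2 reads were counted as Lyz1 was not tested, and the sum of the copies is given as well.

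The libraries held 2760731 to 9944134 estimated counts. Stk11 was lower in all 5 sgLkb1 libraries than in all 7 sgInert libraries, with a log2 fold change of -1.24 ± 0.17 (SE). Cebpa was higher in sgCebpa/b/d than in sgInert libraries by 0.73 ± 0.14 on the log2 scale, and the libraries did not overlap. Cebpb and Cebpd overlapped between those groups, so transcript levels did not check that the C/EBP guides had cut. The titles fall into libraries with an MT animal number (3 sgInert, 4 sgCebpa/b/d, 3 sgLkb1), libraries with a ZR animal number (4 sgInert), and libraries with no animal number (3 sgCebpa/b/d, 2 sgLkb1). What the title series stand for is not given in the sources used here. In the sgCebpa/b/d group the libraries with no animal number were the 3 male ones and the MT libraries the 4 female ones, and 3 of the MT libraries came from 1 animal. Levels below are in TPM, which are corrected for transcript length and scaled to 1 fixed total in every library, and differences are log2 fold changes with standard errors (SE) from edgeR. In bulk samples, fewer cells of a type and less RNA of a gene in each cell cannot be told apart.

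Lyz2 was among the most abundant transcripts of sgInert tumors, at rank 9 to 12 of all genes by TPM. Its level there ran from 13254 to 21847 TPM with a median of 19625. With the C/EBP guides it ran from 454 to 3342 TPM with a median of 2023. In the 5 sgLkb1 libraries it was 3881, 4753, 5308, 6447 and 7721 TPM. The order of the groups was thus sgInert, sgLkb1, sgCebpa/b/d, and no library of one group reached the next. Lyz2 was 11.5-fold lower in sgCebpa/b/d than in sgInert tumors (log2 fold change -3.52 ± 0.32) and 3.85-fold lower in sgLkb1 than in sgInert tumors (-1.94 ± 0.34). Between sgCebpa/b/d and sgLkb1 tumors the difference was -1.58 ± 0.31.

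Lyz1, the lesser copy, was 52.6 to 289 TPM in sgInert tumors with a median of 107. Tumors with the C/EBP guides held 0.17 to 22.3 TPM with a median of 5.63, and the lowest 3 libraries rested on 1, 4 and 8 reads. In sgLkb1 tumors it was 8.34, 11.4, 15.5, 27.3 and 78.7 TPM, and the highest of these, sgLkb1 replicate 1, lay above the lowest sgInert library. Lyz1 spread more between libraries of a group than any other member, with a standard deviation within viruses of 1.49 in log2 CPM (counts scaled to library size) against 0.40 to 0.64 for the others. The log2 fold change was -4.06 ± 0.67 for sgCebpa/b/d against sgInert, -2.59 ± 0.69 for sgLkb1 against sgInert and -1.47 ± 0.68 for sgCebpa/b/d against sgLkb1. The groups did not overlap in the comparison of sgCebpa/b/d with sgInert, and overlapped in the other 2.

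Lyz1 and Lyz2 together had log2 fold changes of -3.53 ± 0.32, -1.95 ± 0.34 and -1.58 ± 0.31 in the same order. Lyz1 made up a median of 0.486% of the reads of both copies over the 19 libraries. The share ranged over 0.253% to 1.40% for sgInert, 0.0279% to 1.04% for sgCebpa/b/d, and 0.123% to 0.961% for sgLkb1, and these ranges overlapped. The lowest share, in sgCebpa/b/d replicate 7, has an exact 95% binomial interval of 7.06e-04% to 0.155%, and the highest, in sgInert replicate 7, one of 1.31% to 1.49%. These intervals cover counting error only, since amplified reads are not independent molecules.

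**Figure D1:**
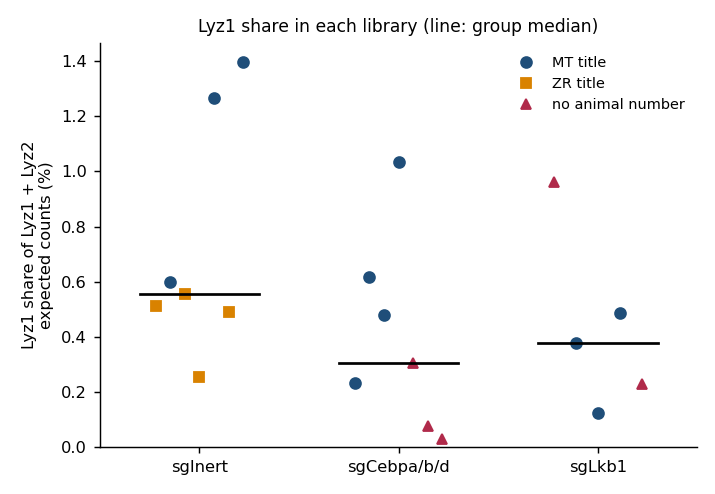
Share of Lyz1 in the expected counts of Lyz1 and Lyz2, in percent, for each library (points, with shape and color for the title series) and the median of each virus (lines). The share stayed between 0.0279% and 1.40%, and the ranges of the 3 viruses overlapped.

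Lcn2 was 1057 to 2561 TPM in sgInert tumors with a median of 1471. It was 196 to 651 TPM in sgCebpa/b/d tumors with a median of 523, and no library reached the sgInert range. In sgLkb1 tumors it was 1081, 1221, 1387, 1697 and 1785 TPM, all inside the sgInert range of TPM. In log2 CPM, sgLkb1 replicates 1 and 2, at 9.14 and 9.07, lay below the lowest sgInert library, at 9.21. Lcn2 was 3.68-fold lower in sgCebpa/b/d than in sgInert tumors (-1.88 ± 0.22) and differed by -0.43 ± 0.24 between sgLkb1 and sgInert tumors. Against sgLkb1, the sgCebpa/b/d tumors had a log2 fold change of -1.45 ± 0.23, without overlap.

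Cxcl15 had the narrowest sgInert range of the members in relative terms, 8928 to 11902 TPM with a median of 10728. Its sgCebpa/b/d range was 1539 to 6175 TPM with a median of 4790. In sgLkb1 tumors it was 4004, 4377, 4568, 5486 and 6743 TPM. Both groups lay wholly below sgInert, by -1.48 ± 0.24 for sgCebpa/b/d and -1.28 ± 0.27 for sgLkb1, and overlapped each other (-0.19 ± 0.26).

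Slpi was the 1 member whose 2 guide groups lay on opposite sides of sgInert. It was 27.6 to 65.4 TPM in sgInert tumors with a median of 37.6. The sgCebpa/b/d libraries held 4.98 to 12.5 TPM with a median of 8.34, on 10 to 37 reads a library. In sgLkb1 tumors it was 97.0, 118, 128, 132 and 259 TPM. The 3 groups did not overlap, and their order was sgLkb1, sgInert, sgCebpa/b/d. Slpi was 5.58-fold lower in sgCebpa/b/d than in sgInert tumors (-2.48 ± 0.23), higher in sgLkb1 than in sgInert tumors by 1.53 ± 0.22 on the log2 scale, and 16.1-fold lower with the C/EBP guides than with the Lkb1 guide (-4.01 ± 0.25).

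**Figure D2:**
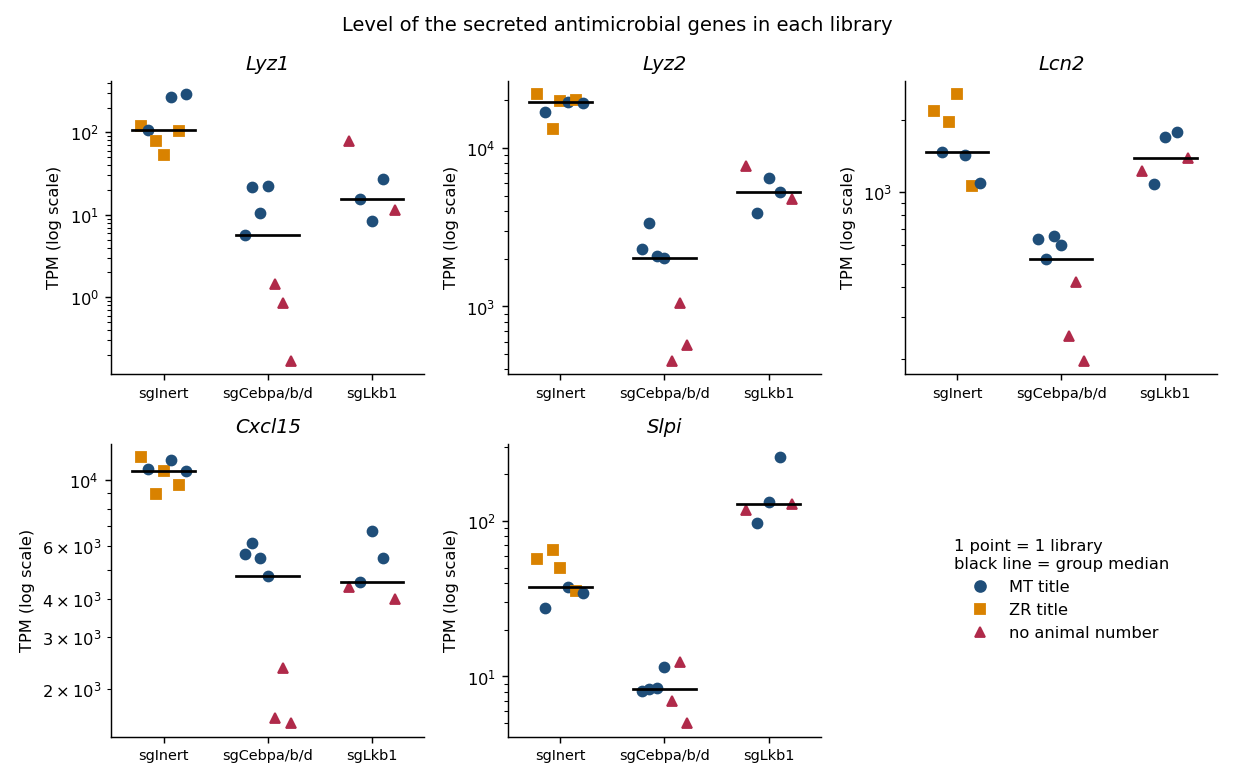
Level of each member in TPM on a log axis, with 1 point for each library, shape and color for the title series and a black line at the median of each virus. The sgCebpa/b/d libraries lie below every sgInert library for all 5 members, while the sgLkb1 libraries lie below sgInert for Lyz2 and Cxcl15, overlap it for Lyz1 and Lcn2, and lie above it for Slpi.

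A member was counted as called where the Benjamini-Hochberg adjusted p of edgeR's quasi-likelihood test over all genes was under 0.05 and the log2 fold change was above 1 in size. By this rule 5 of 5 members were lower in sgCebpa/b/d than in sgInert tumors, where 2.00% of all genes tested were, and the median log2 fold change of the members was -2.48 against 0.02 for all genes. In sgLkb1 against sgInert, 3 members (Lyz1, Lyz2, Cxcl15) were called lower, where 1.14% of all genes were, and Slpi was called higher, where 1.87% were. Between sgCebpa/b/d and sgLkb1, 3 members (Lyz2, Lcn2, Slpi) were called lower, where 1.64% of all genes were. The libraries did not overlap for 5 members in the first comparison, where 2.09% of all genes were lower without overlap. In the second, 2 members were lower without overlap (2.00% of all genes) and 1 was higher without overlap (2.15%), and in the third 3 were lower without overlap (2.87%). Lyz1 was no longer called in sgLkb1 against sgInert when sgLkb1 replicate 2, 3, 4 or 5 or sgInert replicate 5 or 7 was left out, at -2.31 to -2.55. The members were chosen on these contrasts, so the counts are not a result about them. All comparisons with sgInert share the same 7 libraries.

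Within the MT libraries alone, the log2 fold changes for sgCebpa/b/d against sgInert were -3.91 ± 0.41 for Lyz1, -3.05 ± 0.19 for Lyz2, -1.26 ± 0.15 for Lcn2, -1.12 ± 0.13 for Cxcl15 and -2.17 ± 0.29 for Slpi. For sgLkb1 against sgInert, in the same order, they were -3.93 ± 0.46, -2.09 ± 0.20, -0.06 ± 0.16, -1.23 ± 0.14 and 2.04 ± 0.27. For sgCebpa/b/d against sgLkb1 they were 0.02 ± 0.43, -0.97 ± 0.18, -1.20 ± 0.15, 0.11 ± 0.13 and -4.21 ± 0.28. All members of the first comparison kept their direction, whereas Lyz1 and Cxcl15 lay near 0 in the last. Lyz2, at -0.97, no longer passed the fold threshold between sgCebpa/b/d and sgLkb1. The 4 MT libraries of sgCebpa/b/d and the 3 of sgLkb1 carried 2 animal numbers in each group. These standard errors thus rest in part on the spread between samples of 1 animal.

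**Figure D3:**
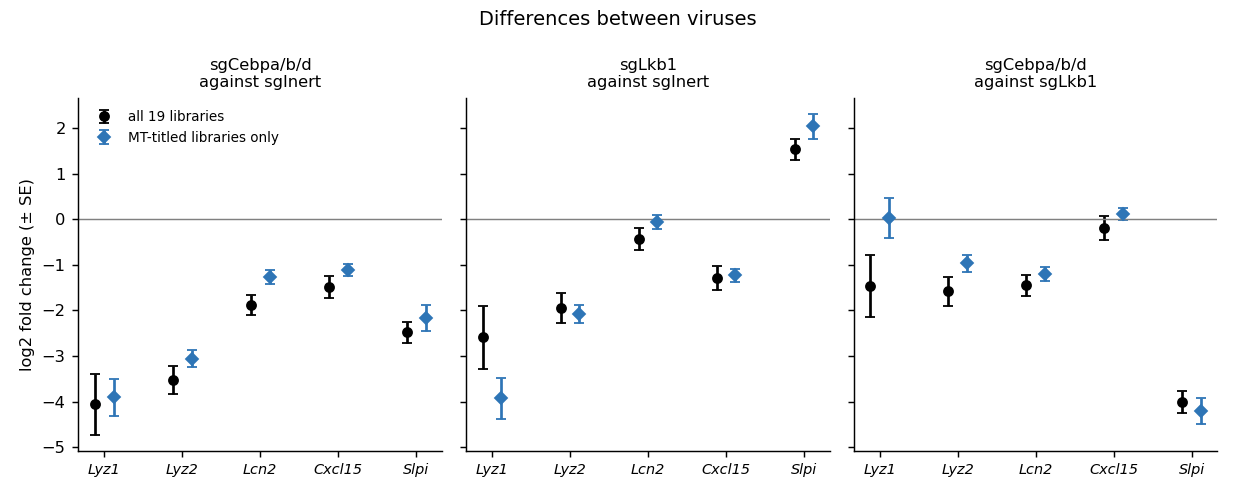
Log2 fold change of each member in the 3 comparisons between viruses, with standard error bars, from all 19 libraries (black circles) and from the MT-titled libraries alone (blue diamonds). Slpi stands at 1.53 in sgLkb1 against sgInert, where the other members lie below 0, and Lyz1 moves from -1.47 to 0.02 in the last comparison when only MT-titled libraries enter.

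The title series were then compared within each virus. The choice of members did not use this contrast as such, but the same libraries entered the virus differences known at the choice. Calls among the members are therefore not fully separate from that choice. In sgCebpa/b/d tumors the 3 libraries with no animal number were compared with the 4 MT libraries. Lyz2 was 454, 574 and 1048 TPM in the former and 2023 to 3342 TPM in the latter, and fell by 1.65 on the log2 scale (SE 0.24, edgeR adjusted p = 3.72e-04). Cxcl15 was 1539, 1601 and 2364 TPM against 4790 to 6175 TPM, which is -1.42 ± 0.14 on the log2 scale (edgeR, adjusted p = 5.92e-06). Lyz1 was 0.17, 0.85 and 1.45 TPM against 5.63 to 22.3 TPM, or -4.05 ± 0.83 on that scale (edgeR, adjusted p = 0.00494). These 3 members passed both thresholds and so fell, where 1.39% of all genes were called lower. Lcn2 was 196, 249 and 420 TPM against 523 to 651 TPM, and its change of -0.90 ± 0.23 passed the p threshold (edgeR adjusted p = 0.0185) but not the fold threshold, which it did pass without sgCebpa/b/d replicate 6 (-1.16). In all, 4 members did not overlap between these libraries, where 10.7% of all genes were lower without overlap. Slpi, at 4.98, 7.00 and 12.5 TPM against 8.01 to 11.6 TPM, overlapped and differed by 0.15 ± 0.33 (edgeR adjusted p = 0.843).

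Sex and title series coincide in that comparison and cannot be told apart there. Among the sgInert libraries, 3 female and 4 male, the members were compared by sex with an exact two-sided permutation test of mean log2 CPM. Differences of female minus male ran from -0.35 for Slpi to 0.19 for Lcn2, with p from 0.400 to 0.914 (0.914 for each after adjustment over the 5 members and the lysozyme sum). With these numbers of libraries the exact test could reach no p below 0.0571. The 4 MT libraries carried 2 animal numbers, so their p-values rest in part on the spread between pieces of 1 animal. With the libraries of 1 animal number summed, Lyz1, Lyz2 and Cxcl15 were still called. The 3 libraries with no animal number stayed separate in that fit. Whether those came from separate animals is not known, so the call was not tested at the level of animals.

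In sgLkb1 tumors, all female, the 2 libraries with no animal number were compared with the 3 MT libraries, and edgeR called no member, where it called 0.157% of all genes. Unadjusted p was under 0.05 for 2 members, Lyz1 and Cxcl15. Lyz2 was 4753 and 7721 TPM against 3881 to 6447 TPM, a difference of 0.27 ± 0.27 (edgeR adjusted p = 0.991). Cxcl15 was 4004 and 4377 TPM against 4568 to 6743 TPM, without overlap, as was so for 11.6% of all genes in this direction, and differed by -0.40 ± 0.16 (edgeR adjusted p = 0.695). Lyz1 differed by 1.40 ± 0.60 (edgeR adjusted p = 0.779), a value set by sgLkb1 replicate 1, without which it was -0.51. In sgInert tumors, ZR against MT libraries gave no call among the members either, where 1.23% of all genes were called, and unadjusted p was under 0.05 for 3 members, Lyz1, Lcn2 and Slpi. The largest difference there was that of Lyz1, -1.34 ± 0.48 (edgeR adjusted p = 0.160), and Slpi differed by 0.62 ± 0.28 (edgeR adjusted p = 0.280).

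The difference between the title series differed between sgCebpa/b/d and sgLkb1 tumors for Lyz1, by -5.45 ± 1.03 on the log2 scale (edgeR interaction, adjusted p = 0.0359), and for Lyz2, by -1.92 ± 0.36 (adjusted p = 0.0359 by edgeR). These 2 members were called, where 0.0787% of all genes, 11 in number, were called lower. For Cxcl15 the interaction was -1.02 ± 0.21 with an edgeR adjusted p of 0.0541, and for Lcn2 and Slpi it was -0.71 ± 0.35 and 0.50 ± 0.46, neither of which passed. The calls for both lysozymes changed when single libraries were left out. Without sgLkb1 replicate 1 the interaction was -3.54 for Lyz1 (edgeR adjusted p = 0.400) and -1.59 for Lyz2 (edgeR adjusted p = 0.330). Of 19 libraries left out in turn, 10 ended the call of Lyz1 (sgCebpa/b/d replicates 2 to 7, sgLkb1 replicates 1 to 3 and sgInert replicate 5) and 9 that of Lyz2 (sgCebpa/b/d replicates 1, 2, 3, 5 and 7, sgLkb1 replicates 1, 2 and 4 and sgInert replicate 5). The direction stayed the same in all of these, and with libraries of 1 animal summed neither was called (edgeR adjusted p = 0.167 for both). The sgCebpa/b/d libraries with no animal number were male and the sgLkb1 ones female, so sex cannot be told apart from the virus in this contrast either.

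**Figure D4:**
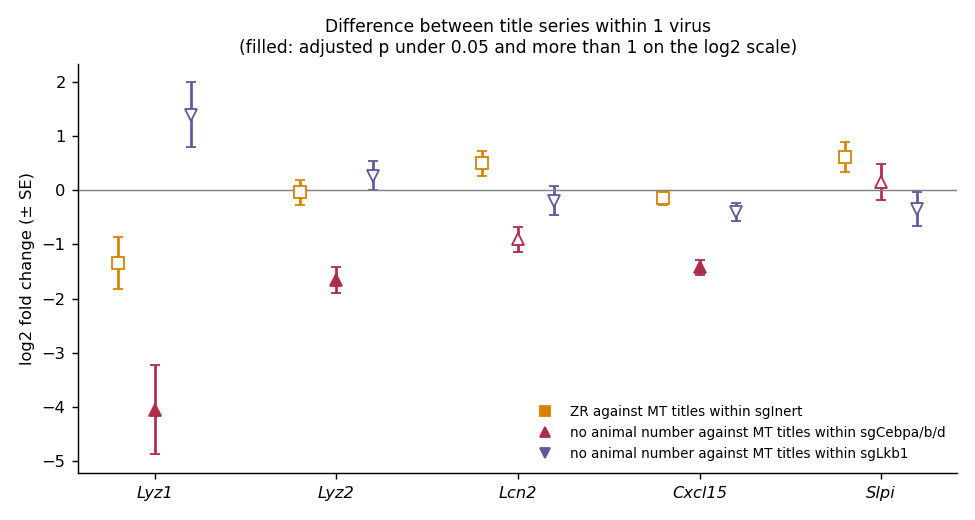
Difference between the title series within each virus, as log2 fold change with standard error bars, for each member. Filled symbols mark an adjusted p under 0.05 with a change above 1 in size. Lyz1, Lyz2 and Cxcl15 are filled within sgCebpa/b/d, at -4.05, -1.65 and -1.42, and no other symbol is.

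Lysozyme is also a product of macrophages, and neutrophils carry lipocalin 2 and Slpi, so the markers of both cell types were read in each library. The summed level of 15 macrophage markers was 38.4 to 43.5 CPM in the MT libraries of sgCebpa/b/d tumors and 174 to 220 CPM in those with no animal number. In sgLkb1 tumors it was 26.0 to 28.5 CPM in the MT libraries and 95.1 and 186 CPM in the others, and in sgInert tumors it was 17.1 to 88.5 CPM. Ptprc, which encodes CD45, had 192 to 265 reads in the sgCebpa/b/d libraries with no animal number and 0 to 11 in the MT ones, and Adgre1, which encodes F4/80, was at 0 in every library with an animal number. The libraries richer in macrophage transcripts were, within sgCebpa/b/d, the ones with less Lyz2. In sgLkb1 tumors no such order was seen. There sgLkb1 replicate 1 held the highest marker sum of its group (186 CPM, with 370 reads of Ptprc). It also held the most Lyz2 (7721 TPM) and Lyz1 (78.7 TPM). But sgLkb1 replicate 5, at 95.1 CPM, held 4753 TPM of Lyz2, less than MT replicates 3 and 4 (6447 and 5308 TPM).

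The summed level of 12 neutrophil markers reached from 0.244 to 9.05 CPM over the sgInert libraries, from 3.46 to 27.7 CPM over sgCebpa/b/d, and from 4.96 to 7.86 CPM over sgLkb1. Within sgCebpa/b/d it was 3.46 to 7.97 CPM in the MT libraries and 19.9 to 27.7 CPM in those with no animal number, and Ly6g, Mpo and Camp were at 0 in every library. Of the macrophage markers, 11 passed the filter on low counts, and none was called in either comparison with sgInert by edgeR. Unadjusted p was under 0.05 for 5 of them in sgCebpa/b/d and 2 in sgLkb1 tumors, and Cd14, a coreceptor for lipopolysaccharide, differed by 0.87 ± 0.17 in sgCebpa/b/d tumors (edgeR adjusted p = 0.00165), under the fold threshold. Without the sgCebpa/b/d libraries that carry no animal number, Cd14 stood at 0.99 ± 0.19. The other macrophage markers that passed the filter there lay below 0: Ptprc (-0.92), Cd68 (-0.59), Csf1r (-0.79), Mrc1 (-2.15), Ear2 (-4.77) and Fcer1g (-6.34). None of these markers was called there. Of the neutrophil markers 2 passed, and Retnlg, a resistin-like protein of neutrophils, rose in sgCebpa/b/d against sgInert by 2.29 ± 0.43 (edgeR adjusted p = 0.00116), where 2.65% of all genes were called higher, and was still called without the libraries that carry no animal number (2.01 ± 0.50). Other markers of the list did not rise with it there. S100a8, S100a9, Csf3r and Elane were at 0 in every MT library of sgCebpa/b/d and of sgInert tumors. Cxcr2 had 0 to 3 reads in those of sgCebpa/b/d and 0 to 16 in those of sgInert. The part of other cells in the members' levels was not tested.

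Of 12 markers of ATII cells, all of which passed the filter, 4 were called lower in sgCebpa/b/d than in sgInert tumors. These were Abca3, a lipid transporter of lamellar bodies (-1.33 ± 0.13), Hc, which encodes complement C5 (-1.58 ± 0.18), Etv5, a transcription factor (-1.15 ± 0.18), and Lamp3, a lamellar body membrane protein (-1.02 ± 0.18). Sftpc, the defining surfactant protein of the ATII cell, differed by -0.31 ± 0.10 (edgeR adjusted p = 0.0458) and was not called. Without the sgCebpa/b/d libraries that carry no animal number, Abca3 and Hc were still called, while Etv5 (-0.85) and Lamp3 (-0.67) were under the fold threshold. In sgLkb1 tumors 2 of the 12 were called lower, Hc (-1.55 ± 0.20) and Sftpa1, a surfactant collectin (-1.08 ± 0.21). The median of the list was -0.35 and -0.43 in the 2 comparisons, against 0.02 and -0.01 for all genes. The summed ATII markers spanned 63814 to 78185 CPM over the sgInert libraries, 35424 to 64308 CPM over sgCebpa/b/d, and 40817 to 53431 CPM over sgLkb1, and no marker of the 12 was at 0 throughout a group.

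Other secreted defence genes followed the members in part. Of 25 such genes, 14 passed the filter, and 6 of these were called lower by edgeR and none higher in sgCebpa/b/d than in sgInert tumors. Chil1, a chitinase-like lectin, differed by -3.40 ± 0.25, and the ribonucleases Rnase4 and Ang by -2.80 ± 0.26 and -2.95 ± 0.29. The complement genes C3 and Hc differed by -2.17 ± 0.23 and -1.58 ± 0.18, and Chia1, an acidic chitinase, by -1.48 ± 0.32. All 6 were still called without the sgCebpa/b/d libraries that carry no animal number. In sgLkb1 against sgInert 3 were called lower: Hc, Chia1 (-2.57 ± 0.38) and Sftpa1. Chil1 in sgLkb1 tumors, at -0.97 ± 0.25 (edgeR adjusted p = 0.0260), stayed just under the fold threshold. Between sgCebpa/b/d and sgLkb1, 4 were called lower, namely Chil1 (-2.43), C3 (-2.14), Rnase4 (-1.98) and Ang (-1.99). The list's median log2 fold change was -0.47, -0.44 and 0.03 in the 3 comparisons.

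Genes related to the members by function were read as well. Of 19 protease inhibitors, the class of Slpi, 14 passed the filter. edgeR called none in sgCebpa/b/d against sgInert, with 6 at an unadjusted p under 0.05. Among them Serpine2, an inhibitor of serine proteases, was higher by 0.58 ± 0.14 (edgeR adjusted p = 0.00895), under the fold threshold. In sgLkb1 tumors 1 was called, Wfdc1, of the same whey acidic protein family as Slpi, which rose by 2.57 ± 0.53, while Wfdc2 of that family differed by -0.45 ± 0.14 (edgeR adjusted p = 0.0525). Of 6 chemokines with an ELR motif and their receptors, the class of Cxcl15, 4 passed. Cxcl3 was called lower in sgCebpa/b/d than in sgInert tumors (-1.34 ± 0.43), Cxcl5 between sgCebpa/b/d and sgLkb1 tumors (-2.42), and none in sgLkb1 against sgInert, where 1 had an unadjusted p under 0.05. Of 6 genes for lipocalin 2 uptake and iron, all passed. Slc40a1, the iron exporter ferroportin, rose in sgCebpa/b/d tumors by 1.17 ± 0.36, fell by 1.81 (SE 0.43) in sgLkb1 tumors, and was higher in sgCebpa/b/d than in sgLkb1 tumors by 2.97, where 1.16% of all genes were called higher. Without the sgCebpa/b/d libraries that carry no animal number, Slc40a1 (1.35, edgeR adjusted p = 0.0508) and Cxcl3 (-0.996, edgeR adjusted p = 0.175) were not called against sgInert, nor Cxcl5 against sgLkb1 (-2.45, edgeR adjusted p = 0.0852).

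Over the 19 libraries, the members differed in how closely they tracked each other. Pearson's r of log2 CPM was 0.93 between Lyz2 and Cxcl15, 0.92 between Lyz1 and Lyz2, 0.89 between Lyz2 and Lcn2, 0.58 between Lyz2 and Slpi and 0.33 between Cxcl15 and Slpi. After the mean of each virus was removed, r was 0.90, 0.73, 0.58, -0.06 and -0.05 for the same pairs. The points share libraries and depth and fall into the 3 virus groups, so these values describe the libraries and carry no test.

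**Figure D5:**
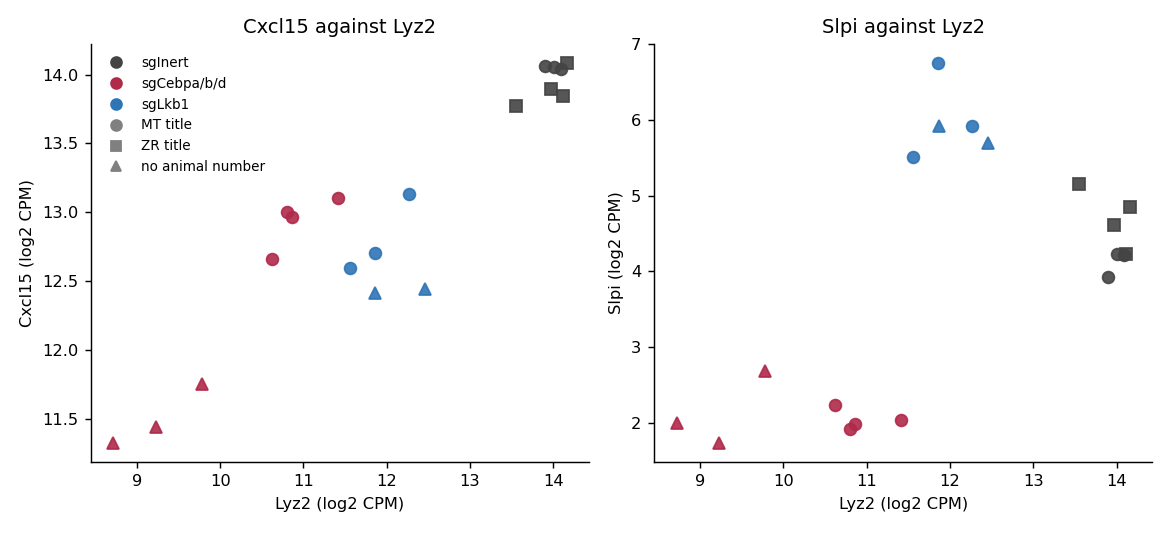
Log2 CPM of Cxcl15 (left) and Slpi (right) against that of Lyz2 in each of the 19 libraries, colored by virus, with shapes for the title series. Cxcl15 is lower where Lyz2 is lower within sgCebpa/b/d, whereas Slpi lies at 3 separate levels that follow the virus. Over all 19 libraries with the virus means removed, r with Lyz2 is 0.90 for Cxcl15 and -0.06 for Slpi.

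The genes whose log2 CPM was most like that of each member were sought among 9733 genes with an average log2 CPM above 2, by Pearson's r over the 19 libraries. For Lyz2 they were S100g, a calcium-binding protein (r 0.98), the complement gene C6 (0.97) and the kinase gene Map3k20 (0.97). For Lyz1 they were Cftr, a chloride channel (0.94), Map3k20 (0.93) and Acoxl (0.92). For Cxcl15 they were Lamp3 (0.97), Hdc, which makes histamine (0.97), and C6 (0.95), and for Lcn2 they were Prnp (0.96), Rnase4 (0.96) and Lbp, which binds lipopolysaccharide (0.95). For Slpi they were Mfsd2a, a lipid transporter (0.94), Scd1, a fatty acid desaturase (0.93), and Itih4 (0.93). With the virus means removed, these stayed between 0.72 and 0.93 for the first 4 members and came to 0.49, 0.27 and 0.63 for Slpi.

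Since a group of these tumors was made with guides against C/EBP factors, the 250 bases before the RefSeq start of each member (GRCm38.p6) are shown 5′ to 3′ on the strand of the gene, which is minus for all but Cxcl15. Capitals mark matches on either strand to the letters TTNNGNAA, a loose C/EBP consensus:
Lyz1: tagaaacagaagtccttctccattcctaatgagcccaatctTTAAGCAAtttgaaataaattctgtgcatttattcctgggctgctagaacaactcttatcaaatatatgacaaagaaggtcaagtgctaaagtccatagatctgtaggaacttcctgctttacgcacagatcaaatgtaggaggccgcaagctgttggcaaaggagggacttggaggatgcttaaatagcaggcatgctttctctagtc
Lyz2: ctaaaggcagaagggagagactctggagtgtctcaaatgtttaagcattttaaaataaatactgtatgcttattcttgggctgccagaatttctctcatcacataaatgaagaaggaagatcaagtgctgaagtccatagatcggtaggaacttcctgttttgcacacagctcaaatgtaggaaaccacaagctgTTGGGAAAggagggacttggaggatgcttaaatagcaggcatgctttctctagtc
Lcn2: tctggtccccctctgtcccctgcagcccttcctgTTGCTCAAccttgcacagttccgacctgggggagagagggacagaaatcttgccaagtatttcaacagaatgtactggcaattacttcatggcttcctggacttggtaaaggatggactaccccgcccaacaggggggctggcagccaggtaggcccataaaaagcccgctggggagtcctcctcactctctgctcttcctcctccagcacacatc
Cxcl15: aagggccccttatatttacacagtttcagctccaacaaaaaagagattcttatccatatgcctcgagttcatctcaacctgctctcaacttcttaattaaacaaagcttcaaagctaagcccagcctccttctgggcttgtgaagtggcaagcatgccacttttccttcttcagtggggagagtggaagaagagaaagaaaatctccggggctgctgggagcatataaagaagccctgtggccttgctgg
Slpi: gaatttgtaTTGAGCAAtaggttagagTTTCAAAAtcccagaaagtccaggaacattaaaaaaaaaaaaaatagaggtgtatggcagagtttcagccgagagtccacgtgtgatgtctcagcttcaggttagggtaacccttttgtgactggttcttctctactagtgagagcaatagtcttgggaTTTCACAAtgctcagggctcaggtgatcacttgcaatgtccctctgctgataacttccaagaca
The windows are chr10:117292869-117293118 for Lyz1, chr10:117282273-117282522 for Lyz2, chr2:32387740-32387989 for Lcn2, chr5:90794284-90794533 for Cxcl15 and chr2:164356508-164356757 for Slpi. Slpi held 3 matches, Lyz1, Lyz2 and Lcn2 held 1 each and Cxcl15 held none, while 36.8% of 32851 promoter windows of this length held at least 1. The single matches of Lyz1 and Lyz2 lie at different places, from -209 to -202 and from -55 to -48 relative to the start, although the 2 windows were 80.6% identical. The letters TNAAGTG of the NK2 homeodomain factors, to which NKX2-1 of lung epithelium belongs, were found in Lyz1, Lyz2 and Cxcl15, and in 10.1% of all windows. An NF-kB consensus was found in none of the 5, and in 7.25% of all windows. The searches overlap at no base in these windows, and a match describes letters, not binding.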

How the data were processed

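RNA of neoplastic cells sorted from lung tumors was sequenced in 19 libraries. Per the labels and the study's methods, the authors aligned paired reads to mm10 with STAR 2.6.1d and made the expected counts per gene with RSEM 1.2.30, without normalization; RSEM also gave the deposited TPM values, corrected for effective length, the deposited gene lengths and the posterior standard deviation of each count. Reads that match more than 1 gene are split among them by RSEM. The authors' DESeq2 comparisons and normalized values were not used here. An allele that all the mice carried is not reported here.

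Groups, replicate numbers and sexes came from the labels, and title series and animal numbers from the titles. Expected counts were rounded, filtered with filterByExpr (minimum count 10, minimum total 15) and fitted in edgeR 4.0.16 (R 4.3.3; TMM, glmQLFit, glmQLFTest) in 1 model of all 19 libraries. A second model with a mean for each virus and title series gave the title contrasts and their interaction. A call needed both an adjusted p (Benjamini-Hochberg over all genes tested) under 0.05 and a log2 fold change beyond 1 in either direction. The code was tested on simulated data. The sum of Lyz1 and Lyz2 came from a fit in which it replaced both rows. Log2 CPM used a prior count of 2, and sexes were compared with scipy 1.17.1. The members and gene lists were chosen with earlier results of these data known. Up to 6 genes of a list, those with the smallest p, were named, and the 3 genes most like each member by Pearson's r, leaving out predicted genes. Labels do not say that all libraries came from separate animals, and 7 libraries shared 3 animal numbers, so p-values partly measure the spread between samples of 1 animal. Alternatives were RLE size factors, DESeq2 1.42.0, limma 3.58.1 on log2(TPM + 1), no filter, sex as a covariate, subsets of libraries, a replicate block, and leaving out each library. Promoters are from RefSeq (GRCm38.p6), with all 5 members matched, and gene positions and coding sequences from GENCODE vM21. Depth, 2760731 to 9944134 counts, limits Lyz1 and Slpi in sgCebpa/b/d most.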

Additional observations from a re-analysis of the deposited data

Results flagged for a closer look

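Lyz2 in sgInert replicate 3, at 13.5 log2 CPM (13.5469 before rounding), stood apart from the other 6 sgInert libraries, the nearest of which was at 13.9. The sum of Lyz1 and Lyz2 did the same there, at 13.5549. The gap was 0.577 of the range for Lyz2, against a critical value of 0.568. These 2 were found among 21 groups checked, and chance flags about 1 in 20 groups.

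The difference between libraries with no animal number and MT libraries differed by the interaction test between sgCebpa/b/d and sgLkb1 tumors for Lyz1 (-5.45 on the log2 scale), for Lyz2 (-1.92) and for their sum (-1.93, SE 0.36, edgeR adjusted p = 0.0382). None of the 3 was called without sgLkb1 replicate 1, at -3.54, -1.59 and -1.60. In sgCebpa/b/d tumors the sum was 455 to 1049 TPM in the former and 2045 to 3364 TPM in the latter. In sgLkb1 tumors it was 4764 and 7800 TPM in the former and 3897 to 6456 TPM in the latter.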

How the results depend on the processing

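In the comparisons between viruses, all alternatives that were run kept the direction of every called member, and 178 of 180 values moved by less than 1 SD between libraries. The other 2 were Lcn2 in sgCebpa/b/d against sgInert (-1.26) and Slpi in sgLkb1 against sgInert (2.04), both among MT libraries only. The SD was that of each gene within viruses, and for Lyz1 it was 1.49. A move of Lyz1 from -1.47 to 0.02 in sgCebpa/b/d against sgLkb1, also among MT libraries only, thus counted as less than 1 SD. Lyz1 was not called in that comparison, so the count of kept directions did not cover it. Lyz1 in sgLkb1 against sgInert was not called with libraries of 1 animal summed (-2.38). Without the 3 sgCebpa/b/d libraries that carry no animal number, an alternative chosen after seeing the data, all 5 members stayed lower than in sgInert, at -3.31 (Lyz1), -3.03 (Lyz2), -1.56 (Lcn2), -1.03 (Cxcl15) and -2.55 (Slpi).

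The numbers of genes called in sgCebpa/b/d against sgInert, sgLkb1 against sgInert and sgCebpa/b/d against sgLkb1 were 650, 421 and 391. They were 933, 629 and 530 with DESeq2 and 483, 472 and 413 with limma on TPM, which moved the median of all genes by 0.19 in sgLkb1 against sgInert and by -0.18 in sgCebpa/b/d against sgLkb1. The share of higher calls went from 62.0% to 80.9% and from 41.4% to 22.3% in those 2. The first count was 419 among libraries with an animal number, and the second 750 with sex as a covariate. With a replicate block they were 610, 525 and 364. The numbers did not pair the libraries, since same-numbered libraries had correlations of -0.147 to 0.232 in 17 pairs. Each library was also checked against each other group that held its number. In 5 of 34 such checks it correlated best with its own number.

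Between title series, 172 genes were called for sgInert, 592 for sgCebpa/b/d and 22 for sgLkb1. These became 531, 1108 and 215 without the filter on low counts and 32, 190 and 6 with libraries of 1 animal summed. Leaving out 1 library gave 43 (sgInert replicate 5) to 243 (sgInert replicate 6), 334 (sgCebpa/b/d replicate 5) to 686 (sgInert replicate 6) and 5 (sgLkb1 replicate 1) to 34 (sgInert replicate 7). Other libraries that moved a count by more than 1.5 times were sgInert replicate 3 for the first (109), sgCebpa/b/d replicate 7 for the second (379) and, for the third, sgCebpa/b/d replicate 7 and sgLkb1 replicate 5 (11 each), sgLkb1 replicate 2 (14) and sgLkb1 replicate 3 (7). Lyz1, Lyz2 and Cxcl15 were called within sgCebpa/b/d under all 22 alternatives. Of these, 19 left out 1 library each, also libraries of the other viruses, which enter this contrast only through the shared filter, scaling and spread. The interaction, whose alternatives were added after seeing the data, called 17 genes, 310 without the filter, 3 with animals summed, and 3 (without sgLkb1 replicate 1) to 53 (without sgInert replicate 6) with 1 library left out. It was moved by more than 1.5 times too by leaving out sgCebpa/b/d replicate 1 (10), 3 (8), 5 (7), 6 (39) or 7 (6), sgLkb1 replicate 2 (4) or 3 (11) or sgInert replicate 5 (10). Without the filter, Lyz1 was also called in sgInert (-1.35) and sgLkb1 (1.39). In that fit edgeR estimated infinite prior degrees of freedom, against 6.78 with the filter, so every gene took the trended spread in place of its own, and the calls without the filter can count spread between libraries as difference.

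Values that were not called changed sign when 1 library was left out. In sgInert, ZR against MT, Lyz2 ranged from -0.10 to 0.082 and the lysozyme sum from -0.11 to 0.0721. In sgCebpa/b/d Slpi ranged from -0.19 to 0.34. In sgLkb1 Lyz1 ranged from -0.51 to 2.18, Lyz2 from -0.0614 to 0.54, their sum from -0.0625 to 0.55 and Slpi from -0.59 to 0.0792. By sex, Lyz2 and the sum changed sign to 0.0274 and 0.0269 on log2(TPM + 1). Counts as low as 1 read for Lyz1 and 10 for Slpi limit both in sgCebpa/b/d tumors.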

Other observations

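A list of 18 NF-kB and STAT3 acute phase genes held regulators such as Nfkb1 and Stat3 beside their targets, to which Lcn2 is often counted. Of these 18 genes, 14 passed the filter on low counts. In sgCebpa/b/d against sgInert tumors edgeR called none, with 6 at an unadjusted p under 0.05, and Icam1, an adhesion molecule, differed by 0.44 ± 0.13 (edgeR adjusted p = 0.0333), under the fold threshold. In sgLkb1 against sgInert tumors 1 was called, Cp, which encodes the copper-carrying ferroxidase ceruloplasmin, at 1.34 ± 0.40. Between sgCebpa/b/d and sgLkb1 tumors 2 were called lower, the cytokine gene Il6 (-1.93) and Orm1, an acid glycoprotein of plasma (-2.95). Il6 differed by -1.24 ± 0.41 (edgeR adjusted p = 0.0574) and 0.69 ± 0.43 (edgeR adjusted p = 0.422) in the comparisons with sgInert.

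Of 9 club and airway secretory markers, 4 passed. Muc5b, a gel-forming mucin, was called higher in sgLkb1 than in sgInert tumors (2.61 ± 0.77) and differed by 1.47 ± 0.73 in sgCebpa/b/d tumors (edgeR adjusted p = 0.230). Cyp2f2, a cytochrome P450 of club cells, differed by -0.79 ± 0.22 in sgLkb1 tumors (edgeR adjusted p = 0.0391), under the fold threshold. Scgb1a1, the main secretoglobin of club cells, differed by -1.72 ± 0.88 and -1.30 ± 0.96 in sgCebpa/b/d and sgLkb1 tumors, neither of which passed. In sgCebpa/b/d against sgInert edgeR called none of the list, with 0 at an unadjusted p under 0.05. The summed level of the list was 25.9 to 205 CPM in sgInert libraries, 29.8 to 108 CPM in sgCebpa/b/d and 27.7 to 162 CPM in sgLkb1.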
